A study of Gallus gallus with 34 samples.

Results

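The genes described here are the cytokines, the chemokines and their receptors that were counted in the retina, retinal pigment epithelium (RPE) and choroid of young chicks. They are the 73 of 13067 genes in the count table whose symbol begins like that of an interleukin, a CC or CXC chemokine or its receptor, a tumor necrosis factor (TNF) family gene, an interferon gene or a Toll-like receptor, with TNFAIP6 left out. By role they comprised 4 interleukins, 25 interleukin receptors, 4 chemokines, 6 chemokine receptors, 2 TNF ligands, 11 TNF receptors, 6 interferons and interferon receptors, and 9 Toll-like receptors. The other 6, called TNF-induced genes here, are named for induction by TNF or for likeness to a gene so named. The study asked how expression differs between eyes that are being made myopic or hyperopic by a lens and eyes that develop normally. Messenger RNA was sequenced from 34 male Leghorn/New Hampshire chicks, with 1 eye taken from each chick. Chicks wore a negative lens (-10 diopters), a positive lens (10 diopters) or No Lens for 1, 2 or 3 days and were then 6, 7 or 8 days past hatching. There were 4 chicks in each group except for No Lens at 1 and at 2 days, with 3. Chicks are given here by their replicate number within a group. The chicks had been picked by the authors for strong and cohesive responses to the lens, so the spread within a group is that of picked chicks, and a different set of chicks was used for each day.

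Cytokines and chemokines are secreted proteins that carry messages between leukocytes and tissue cells, and each acts through receptors on the surface of the receiving cell. Many interleukin receptors, though not all, and the interferon receptors pass their signal mainly through JAK kinases and STAT factors. The interleukin 1 receptor family, TNF receptors and Toll-like receptors act mainly through NF-kappaB. In the eye such genes are used by resident microglia of the retina, by the pigment epithelium, by vessel walls and by leukocytes of the choroid, and some members act in neurons.

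Total gene counts per chick ranged from 1592763 to 13765634, and the members took 0.0971% to 0.124% of them. The lowest total belonged to replicate 2 of the positive lens 3 day group. Markers of pigment epithelium and vessels were present, with RPE65 of pigment epithelium at 502 to 1072 CPM (normalized counts scaled to a common library size) and KDR of vessel endothelium at 240 to 305 CPM. Leukocyte markers were low but present, with LCP1 at 18.2 to 37.5 CPM. Of 12 T cell markers 8 were in the table, and 7 of those (CD3D, CD4, CD8A, CD5, LCK, ZAP70 and ICOS) were at 0 in at least 1 chick.

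Of the 73 members, 55 had enough reads to be tested over all 34 chicks and 18 did not, and 57 had at least 1 read in every chick. The 18 untested members had a median of 0 to 6 reads per chick. Among them were 9 interleukin receptors, the chemokines CCL1 and CCLI5, the chemokine receptor CCR7, TNFSF11 (RANKL, the ligand that drives osteoclast formation), IFNG (interferon gamma), and the Toll-like receptors TLR15, TLR1LA and TLR2-2. All 11 TNF receptors and all 4 interleukins could be tested. CPM values here are scaled by the TMM method and are not divided by transcript length, so they are compared between chicks and not between genes. Within groups the SD of a tested member was 0.12 to 0.79 on the log2 scale with a median of 0.33, against a median of 0.22 over all genes tested.

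Few lens differences of the members were called, as was the case for all genes tested (0% to 0.878% called in these comparisons). edgeR's quasi-likelihood test called a member at an adjusted p below 0.05 in just 2 of the 12 lens comparisons shown: CXCR4, which was lower under the positive lens than in No Lens eyes at 3 days, and IL16, which was higher under the negative than under the positive lens when the 3 days were fitted jointly. The comparisons with No Lens share the same No Lens chicks within a day and are not independent of each other.

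On day 1, edgeR called 0 of the 49 members tested in each of the 3 comparisons. Of all 11448 genes tested, edgeR called 0% in negative lens against No Lens, 0% in positive lens against No Lens and 0.0262% in negative against positive. At an unadjusted p below 0.05 there were 4, 3 and 5 members in these comparisons (8.16%, 6.12% and 10.2% of those tested), where all genes gave 3.18%, 3.87% and 3.8%. DESeq2 called 1 member, 0 members and 1 member, which was IL1RL1 both times. Whatever their p, 27, 22 and 31 of the 49 members were higher in the group named first, beside 51.4%, 48.5% and 51.6% of all genes. On day 2, edgeR and DESeq2 each called 0 of 47 members in the 3 comparisons, where edgeR called 0%, 0% and 0.0526% of all genes. The members at an unadjusted p below 0.05 numbered 3, 1 and 2 (6.38%, 2.13% and 4.26%), beside 4.98%, 2.51% and 2.78% of all genes, and 12, 20 and 14 of the 47 were higher, beside 50%, 49.3% and 51.6%.

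On day 3, edgeR called 0 of 53 members for the negative lens against No Lens (0% of all genes), 1 for the positive lens against No Lens (0.878% of all genes, 0.817% called higher and 0.0609% lower) and 0 for negative against positive (0.0348% of all genes), and DESeq2 called 0, 1 and 0. At an unadjusted p below 0.05 there were 6, 5 and 9 members (11.3%, 9.43% and 17.0%), beside 10.3%, 17.6% and 6.58% of all genes. Of the 53 members 21, 34 and 16 were higher, beside 51.4%, 48.5% and 47.8% of all genes. With the 3 days together and day as a term in the fit, edgeR and DESeq2 each called 0 of 55 members for the negative lens against No Lens (0.135% of all genes in edgeR), 0 for the positive lens against No Lens (0.0589%) and 1 for negative against positive (0.547%). Unadjusted p lay below 0.05 for 6, 3 and 5 members (10.9%, 5.45% and 9.09%), beside 7.94%, 6.35% and 6.14% of all genes, and 18, 22 and 22 of the 55 were higher, beside 52.2%, 54.5% and 52.6%. Over the 9 comparisons within a day, 31 of the 53 members tested on at least 1 day never reached an unadjusted p of 0.05. The matching share over all genes was not counted, so 31 is a description and is not read as a lack of response. In most of these comparisons, though not in all, the share at an unadjusted p below 0.05 was higher among members than over all genes.

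**Figure D1:**
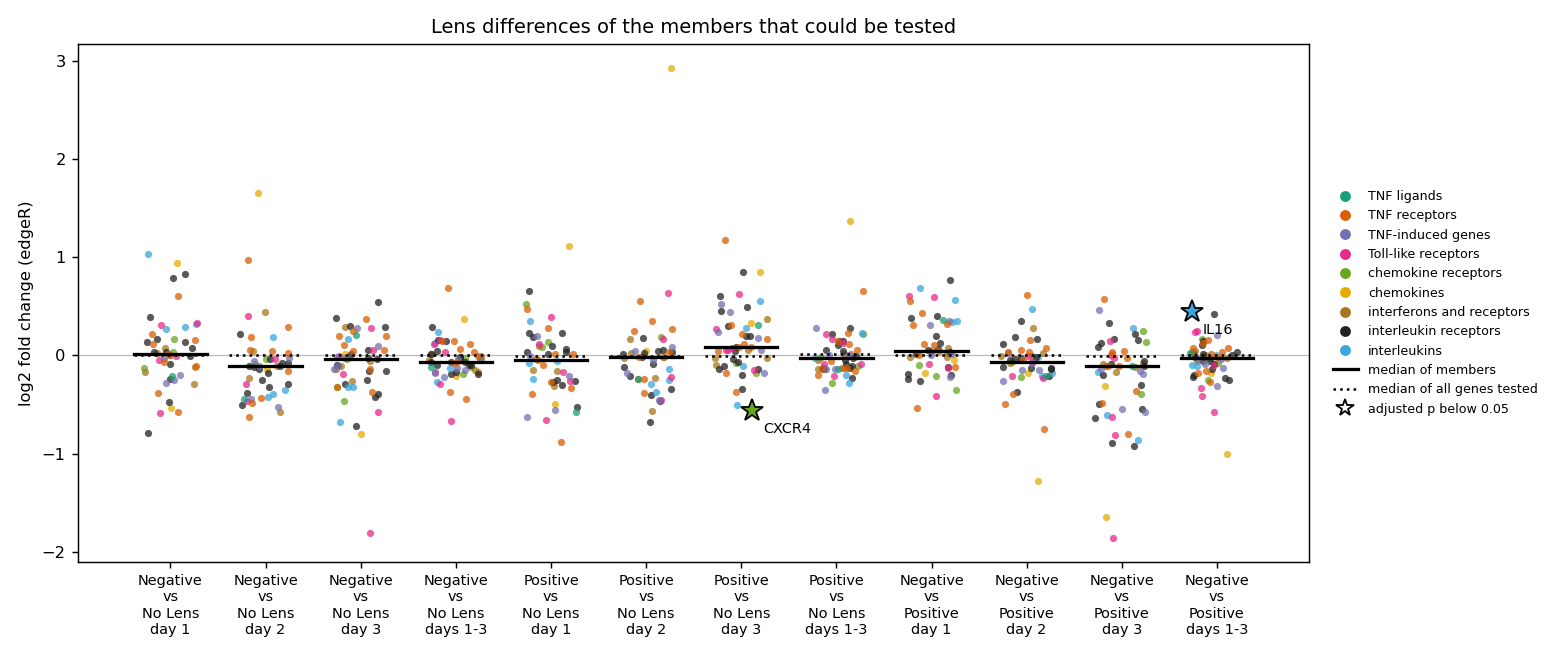
Each point is the log2 fold change (edgeR, vertical axis) of 1 member in a lens comparison (horizontal axis), coloured by role, with the median of the members as a solid line and that of all genes tested as a dotted line. Most points lie within 1 log2 unit of 0, and the 2 stars mark CXCR4 (-0.57) and IL16 (0.44), the members with an adjusted p below 0.05.

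IL16, a chemoattractant for CD4+ cells that is cut from a longer precursor protein, was the interleukin whose level went with the sign of the lens. Over the 3 days it lay between 21.5 and 33.5 CPM with a median of 26.1 in the 12 negative lens chicks. In the 10 No Lens chicks it lay between 18.2 and 26.4 CPM with a median of 22.7, and in the 12 positive lens chicks between 15.6 and 25.3 CPM with a median of 20.0. The No Lens median thus lay between those of the lens groups, and the No Lens range overlapped with both. Above every No Lens chick were 6 of 12 negative lens chicks, and below every No Lens chick were 4 of 12 positive lens chicks. The lens groups overlapped too: 7 of 12 negative lens chicks were above every positive lens chick and 8 of 12 positive lens chicks were below every negative lens chick. The fitted difference between negative and positive lens was 0.44 ± 0.09 on the log2 scale (adjusted p = 0.00817 in edgeR, 0.000657 in DESeq2). In whole tissue, fewer cells that express a gene and less RNA per cell cannot be told apart, and this holds for every difference given here.

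The lens groups were nearest to separate on the first days. On day 1 IL16 was at 23.7, 23.7, 33.4 and 33.5 CPM under the negative lens, at 16.3, 17.9, 19.8 and 23.9 CPM under the positive lens, and at 22.0, 22.3 and 24.4 CPM with No Lens. On day 2 it was at 23.7, 25.6, 30.3 and 30.4 CPM under the negative lens, at 15.6, 19.8, 20.3 and 22.5 CPM under the positive lens, and at 22.6, 22.8 and 26.4 CPM with No Lens. The lens groups did not overlap on day 2, as was the case for 1.96% of all genes tested, and overlapped by 1 positive lens chick on day 1. On day 3 they overlapped more widely, with 21.5, 24.8, 26.7 and 30.4 CPM under the negative lens, 16.5, 21.1, 23.6 and 25.3 CPM under the positive lens, and 18.2, 22.6, 24.8 and 25.1 CPM with No Lens.

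The negative minus positive difference of IL16 was 0.56 ± 0.17, 0.47 ± 0.14 and 0.28 ± 0.16 on days 1, 2 and 3, none of which was called alone (the lowest adjusted p in edgeR was 0.816). Against No Lens over the 3 days the negative lens differed by 0.23 ± 0.09 (adjusted p = 0.575 in edgeR) and the positive lens by -0.20 ± 0.09 (adjusted p = 0.749), so neither arm was called by itself. A change of the difference from day 1 to day 3 was not detectable (-0.30 ± 0.22). Leaving out any 1 of the 24 lens-wearing chicks kept IL16 called, with a difference of 0.41 to 0.48 and an adjusted p of 0.00286 to 0.0247 in edgeR. Leaving out a whole day did not always do so: the adjusted p was 0.210 without day 1, 0.241 without day 2 and 0.0490 without day 3. The summed T cell markers ranged from 5.12 to 10.0 CPM in the negative lens groups and from 2.60 to 16.2 CPM in the positive lens groups, and within groups IL16 and this sum had r = -0.15 over 34 chicks. Their part in the IL16 difference was not tested.

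**Figure D2:**
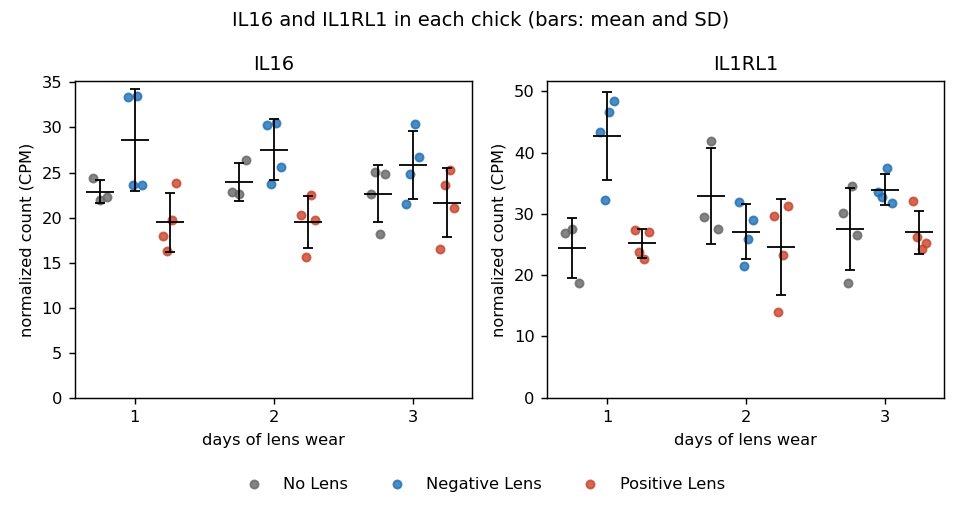
The normalized count (CPM, vertical axis) of IL16 and IL1RL1 in each chick is plotted by days of lens wear and lens group, with the mean and SD of each group as bars. IL16 under the negative lens lies above IL16 under the positive lens on each day with overlap on days 1 and 3, and the 4 negative lens chicks of day 1 stand above the other chicks of that day in IL1RL1 (32.3 to 48.4 CPM).

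The other 3 interleukins were counted at lower levels and none was called. IL18, an interleukin 1 family cytokine released by inflammasome cleavage, was at 4.16, 4.22, 4.29 and 5.26 CPM under the negative lens on day 3 and at 6.43, 6.47, 6.80 and 8.49 CPM with No Lens. These groups did not overlap, as was the case for 3.94% of all genes tested, and the difference was -0.68 ± 0.24 (adjusted p = 0.413 in edgeR). The positive lens chicks of that day, at 2.02, 4.64, 5.50 and 6.40 CPM, were also all below No Lens (-0.51 ± 0.24, adjusted p = 0.291), and the lowest was replicate 2 with 3 reads. IL34, a ligand of the receptor CSF1R that maintains microglia, was at 6.52, 6.87, 8.77 and 9.27 CPM under the positive lens on day 3 and at 3.34, 4.13, 4.91 and 7.07 CPM under the negative lens with 1 negative lens chick in the positive lens range (negative minus positive -0.60 ± 0.28, adjusted p = 0.752). IL15, which maintains T cells and natural killer cells, was chosen after its values were seen. On day 3 it was at 1.19, 2.48, 2.99 and 3.00 CPM under the negative lens and at 2.75, 4.72, 4.72 and 5.77 CPM under the positive lens, with 1 positive lens chick in the negative lens range (-0.87 ± 0.33, adjusted p = 0.649 in edgeR).

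Of the 25 interleukin receptors, 16 could be tested over all chicks. IL1RL1, known in mammals as ST2, the receptor for interleukin 33, gave the clearest difference at 1 day. It was at 32.3, 43.4, 46.7 and 48.4 CPM under the negative lens, at 18.7, 27.0 and 27.5 CPM with No Lens, and at 22.6, 23.9, 27.1 and 27.4 CPM under the positive lens. Every negative lens chick was above all the others of that day, while the No Lens and positive lens ranges coincided. Groups did not overlap in 2 members for the negative lens against No Lens and in 3 for negative against positive, beside 5.63% and 1.99% of all genes. The difference was 0.83 ± 0.17 from No Lens and 0.76 ± 0.16 from the positive lens, with adjusted p of 0.617 and 0.261 in edgeR, where it was not called, and of 0.0185 and 0.0103 in DESeq2, where it was.

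By day 2 IL1RL1 under the negative lens was at 21.5, 25.9, 29.0 and 32 CPM, within the range of the No Lens chicks of that day or below it (27.5, 29.6 and 41.9 CPM). The step from day 1 to day 2 under the negative lens was -0.66 ± 0.14 (adjusted p = 0.312 in edgeR, 0.0245 in DESeq2), and the day 1 and day 2 chicks did not overlap, as in 3 members and 3.59% of all genes. On day 3 the negative lens chicks were at 31.8, 32.8, 33.6 and 37.6 CPM and the No Lens chicks at 18.7, 26.5, 30.2 and 34.6 CPM. IL1RL1 lies next to IL18R1 and near IL1R1 and IL1R2 in the chicken assembly GRCg7b. IL1R1, the receptor for interleukin 1, which was picked as a neighbour after its values were seen, was at 8.86 to 21.8 CPM under the negative lens on day 1 and at 20.3 to 32.2 CPM with No Lens (-0.79 ± 0.29, adjusted p = 1.00), the opposite direction to IL1RL1.

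IL23R, the specific chain of the interleukin 23 receptor, separated the lenses on day 3. It was at 2.11, 2.15, 2.63 and 3.41 CPM under the negative lens and at 3.53, 5.39, 5.40 and 5.77 CPM under the positive lens. The groups did not overlap, as for 7 of 53 members (3.72% of all genes) in that comparison, and the difference was -0.92 ± 0.29 (adjusted p = 0.486 in edgeR). The No Lens chicks, at 2.76, 4.05, 4.87 and 5.46 CPM, overlapped with both. The receptor chains that mark T cells in mammals had few reads. IL2RG, the gamma chain shared by several interleukin receptors, ranged from 0.237 to 3.64 CPM over the 34 chicks, and IL7R from 0.152 to 2.13 CPM. IL2RA was at 0 in 15 chicks and reached 1.63 CPM in replicate 4 of the positive lens 3 day group (13 reads). The receptors with the most reads were IL1RAPL2, an interleukin 1 receptor family member (33.9 to 57.5 CPM), and IL17RD, a relative of the interleukin 17 receptors that restrains fibroblast growth factor signalling (20.8 to 63.9 CPM), and neither was called in a lens comparison.

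Among the chemokines, CXCL12 acts on both CXCR4, which drives cell migration, and CXCR7, which mainly takes the ligand up. CXCR4 was the member called on day 3. It was at 23.3, 24.3, 27.6 and 29.4 CPM under the positive lens and at 33.5, 37.4, 39.8 and 43.7 CPM with No Lens. Every positive lens chick was below every No Lens chick. These groups did not overlap, in either direction, in 4 of 53 members and 11.6% of all genes tested. The negative lens chicks, at 25.9, 29.8, 33.6 and 33.6 CPM, overlapped with both. CXCR4 fell by 0.57 on the log2 scale (standard error 0.12, adjusted p = 0.0447 in edgeR and 0.00532 in DESeq2), as 1 of the 7 genes called lower in this comparison among 101 called. For the negative lens the difference from No Lens was -0.32 ± 0.12 (adjusted p = 0.417).

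The call for CXCR4 lay close to the threshold. Leaving out any 1 of the 8 chicks ended it, with adjusted p in edgeR of 0.102, 0.0685, 0.153 and 0.0904 without No Lens replicates 1, 2, 3 and 4, and of 0.0960, 0.0555, 0.0638 and 0.116 without positive lens replicates 1, 2, 3 and 4. The difference itself stayed between -0.65 and -0.51. The count column of No Lens replicate 1 carries a suffix that the labels do not explain. On days 1 and 2 CXCR4 under the positive lens was not below No Lens: it was at 33.7 to 36 CPM against 30.8 to 35.0 CPM on day 1, and at 33.6, 37.8, 41.2 and 42.6 CPM against 31.6, 35.0 and 35.2 CPM on day 2. The positive lens chicks of day 3 were also all below those of day 2 in CXCR4, with a difference of -0.58 ± 0.12 (adjusted p = 0.797 in edgeR, 0.0251 in DESeq2). Non-overlap between these days, in either direction, was found in 3 members and 3.04% of all genes. The change of the positive minus No Lens difference from day 1 to day 3 was -0.63 ± 0.16 (adjusted p = 0.583), so that a difference between the days was not called.

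On day 3 the summed macrophage and microglia markers (8 of 12 in the table) were at 101 to 137 CPM under the positive lens and 89.9 to 115 CPM with No Lens, the pan-leukocyte markers (4 of 5) at 49.7 to 67.6 CPM and 34.7 to 54.0 CPM, and the endothelial markers (6 of 7) at 597 to 725 CPM and 544 to 715 CPM. These 3 sums were on average higher under the positive lens. So were the T cell sum (8.05 to 16.2 CPM against 4.96 to 8.49 CPM with No Lens) and the B cell sum (4.05 to 22.6 CPM against 4.23 to 10.8 CPM). High B cell sums mainly report IGJ, which ranged from 0 to 23.7 CPM over all chicks. BLNK, BTK and BLK in that sum reached at most 3.28, 4.72 and 1.25 CPM. Also higher in mean were the choroid stroma and muscle (1163 against 945 CPM), rod and cone (3464 against 2932 CPM) and pigment epithelium sums (1819 against 1683 CPM). The heterophil and mast cell markers (4 of 7) were at 64.8 to 80.7 CPM under the positive lens and 73.2 to 95.6 CPM with No Lens. The Mueller glia markers (4 of 5) were at 3190 to 3382 CPM and 3370 to 3604 CPM. Both sums were on average lower, as was the erythrocyte sum, which mainly reports CA2 (means 1493 against 1517 CPM). The heterophil and mast cell sum mainly reports KIT and LY75 (medians 45.1 and 30.7 CPM over all chicks). CSF3R and LYZ in that sum had medians of 1.28 and 0.195 CPM. The part of these cell types in the CXCR4 difference was not tested.

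CXCL12 was lower than No Lens under both lenses on day 1, at 46.1, 58.6, 65.8 and 70.1 CPM under the negative lens and 51.5, 61.2, 64.4 and 69.4 CPM under the positive lens against 65.5, 95.1 and 101 CPM. The differences were -0.54 ± 0.16 and -0.49 ± 0.16 (adjusted p = 0.937 and 1.00 in edgeR), and both rest on the same 3 No Lens chicks. The choroid stroma and muscle markers (6 of 8 in the table) were on day 1 lower on average under both lenses. Their sum was 1032 to 1098 CPM with No Lens (mean 1070), 658 to 1182 CPM under the negative lens (mean 929) and 655 to 1006 CPM under the positive lens (mean 816). The negative lens range thus spanned that of No Lens. Under the positive lens these markers were at 817 to 1583 CPM on day 3. Their part in the CXCL12 differences was not tested. Under the positive lens CXCL12 was at 75.0, 79.6, 99.9 and 114 CPM on day 3, above every positive lens chick of day 1 (0.57 ± 0.17, adjusted p = 0.671). CXCR7 ranged from 37.7 to 69.5 CPM with wide overlap between the lens groups on each day.

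**Figure D3:**
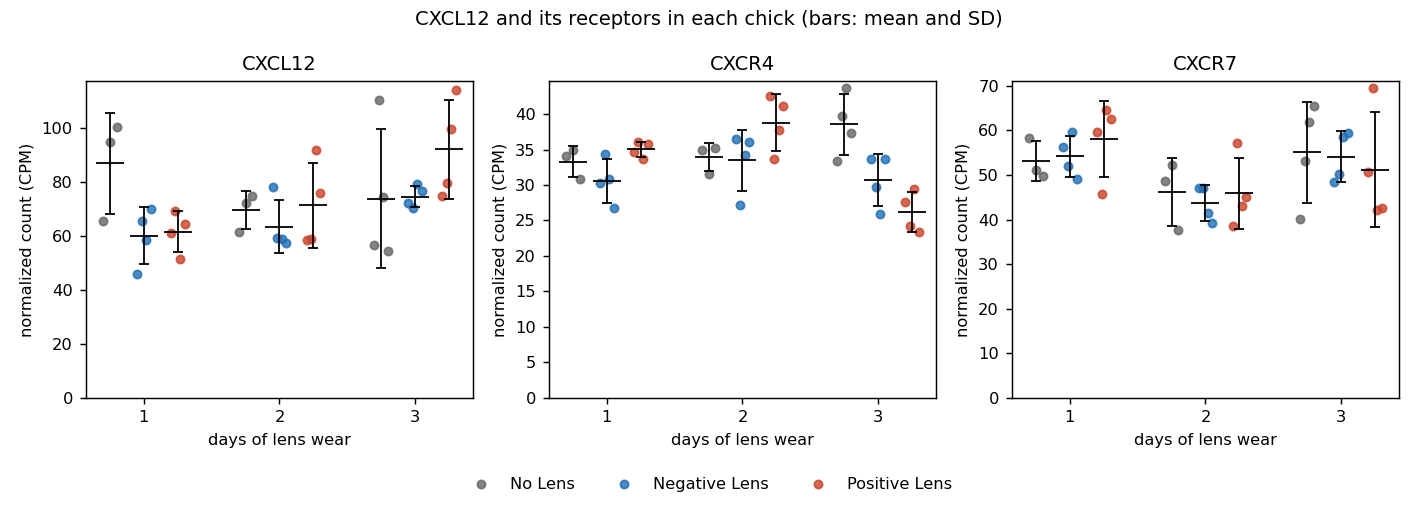
The normalized count (CPM, vertical axis) of CXCL12, CXCR4 and CXCR7 in each chick is plotted by days of lens wear and lens group, with the mean and SD of each group as bars. In CXCR4 the positive lens group is the highest on day 2 (mean 38.8 CPM) and the lowest on day 3 (mean 26.2 CPM), while in CXCR7 the groups overlap on each day.

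CCLI10, a chicken CC chemokine, had the largest fold differences of the tested members but few reads. On day 2 it was at 1.56, 2.75, 3.95 and 6.59 CPM under the positive lens, at 1.20, 1.20, 1.5 and 2.14 CPM under the negative lens, and at 0, 0.257 and 0.791 CPM with No Lens, where the 3 chicks had 0, 1 and 8 reads. Both lens groups lay above all No Lens chicks. Groups did not overlap in 6 of 47 members for the negative lens and in 2 of 47 for the positive lens, beside 7.17% and 3.78% of all genes. CCLI10 had enough reads for a test on day 2 only through positive lens chicks, where it was highest, so its differences of that day are a description. The fitted differences were 2.93 ± 0.66 for the positive lens and 1.65 ± 0.69 for the negative lens (adjusted p = 0.944 and 0.974 in edgeR). Without the No Lens chick with 8 reads, replicate 1, they were 4.53 and 3.25. The No Lens chicks of day 2 were themselves below those of day 1, at 1.17, 1.18 and 2.36 CPM, and of day 3 (-1.58 ± 0.72 from day 1 to 2 and 2.33 ± 0.65 from day 2 to 3, adjusted p = 0.949 and 0.476). For these tests between days CCLI10 had enough reads mainly through day 3 chicks and through no day 2 chick. Its differences between these days are thus a description as well. On day 3 the positive lens chicks were at 3.34, 4.21, 4.64 and 8.10 CPM and the negative lens chicks at 0.533, 0.751, 2.15 and 2.36 CPM, again with no overlap (-1.65 ± 0.47, adjusted p = 0.350), and No Lens lay across both at 1.29 to 4.44 CPM. Over the 3 days the positive lens differed from No Lens by 1.37 ± 0.40 (adjusted p = 0.346). CCLI10 also had the largest spread within groups of all tested members (SD 0.79 on the log2 scale).

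CCLI5, a chemokine that was named only after its values were seen, had 73 reads in all. Of these 53 were in replicate 4 of the positive lens 3 day group and 9 in replicate 1 of the same group, and it was at 0 in 25 chicks. CCL1, its neighbour in GRCg7b, had its highest count, 8 reads, in the same replicate 4, as had IL2RA with 13 and IL7R with 17. Among chemokine receptors other than CXCR4 and CXCR7, CCR6, which in mammals binds CCL20, ranged from 0.716 to 3.37 CPM. Under the positive lens it was at 1.95 to 2.99 CPM on day 1 and at 1.04 to 1.83 CPM on day 2 without overlap, as in 1 member and 1.38% of all genes (-0.76 ± 0.31, adjusted p = 1.00), and it was called in no lens comparison. CCR6 had enough reads for the test between days mainly through day 1 chicks, where it was higher, and through no day 2 chick, so its difference is a description.

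**Figure D4:**
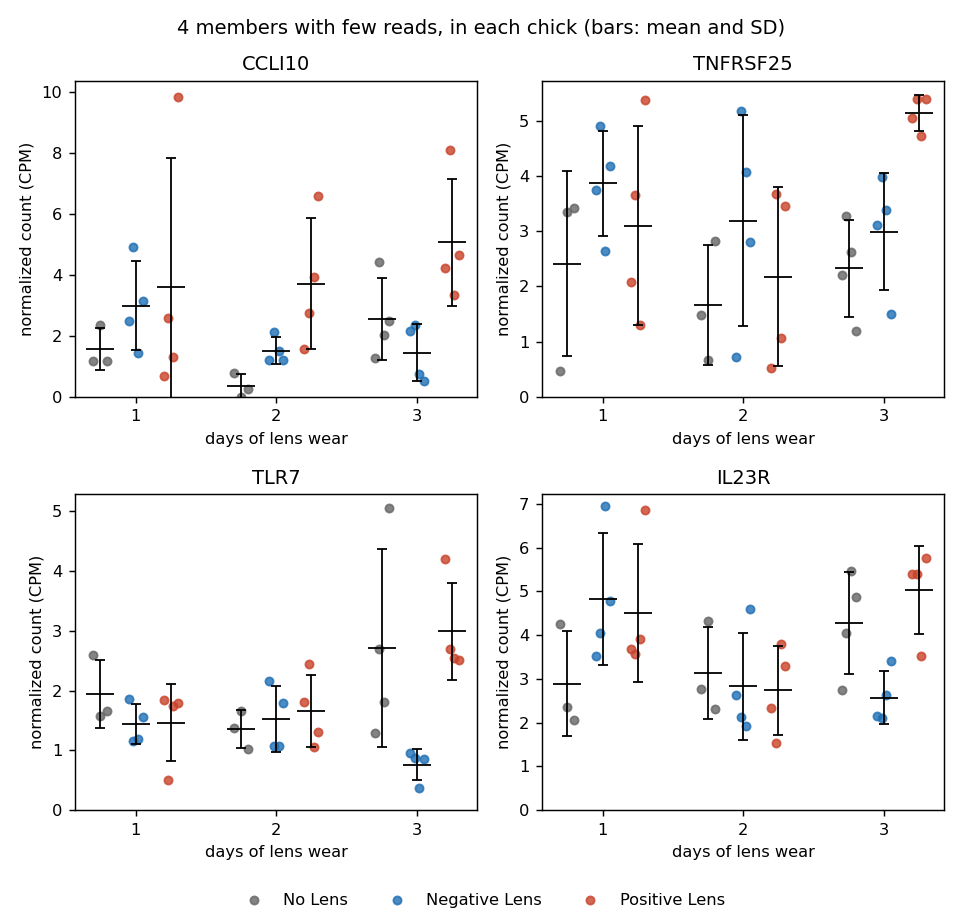
The normalized count (CPM, vertical axis) of CCLI10, TNFRSF25, TLR7 and IL23R in each chick is plotted by days of lens wear and lens group, with the mean and SD of each group as bars. On day 3 the positive lens chicks lie above the negative lens chicks in all 4 genes, and in TNFRSF25 they stand close together at 4.71 to 5.40 CPM.

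The TNF family held ligands, signalling receptors and decoys. TNFRSF25, known in mammals as death receptor 3 of T cells, was at 4.71, 5.05, 5.39 and 5.40 CPM under the positive lens on day 3. The No Lens chicks were at 1.19, 2.21, 2.63 and 3.28 CPM and the negative lens chicks at 1.49, 3.10, 3.38 and 3.97 CPM. Every positive lens chick was above all other chicks of that day. Groups did not overlap in 11.6% of all genes for the positive lens against No Lens and in 3.72% for negative against positive. The difference of TNFRSF25 from No Lens was 1.18 ± 0.34 (adjusted p = 0.0852 in edgeR), just short of a call. With only these 8 chicks in the fit it was called (adjusted p = 0.0434). On days 1 and 2 TNFRSF25 varied from 0.473 to 5.37 CPM and no lens group stood apart. The T cell marker sum was 8.05 to 16.2 CPM under the positive lens on day 3, against 4.96 to 8.49 CPM with No Lens and 5.12 to 7.14 CPM under the negative lens, and within groups TNFRSF25 went with this sum across chicks, with its part in the difference not tested (r = 0.53, adjusted permutation p = 0.0598; rho = 0.52, adjusted permutation p = 0.0467; r = 0.39 without the 2 chicks farthest from the median).

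TNFSF10 (TRAIL, a ligand that can trigger cell death) was on day 1 at 16.1, 19.8, 20.7 and 20.9 CPM under the positive lens and at 20.8, 30.4 and 34.8 CPM with No Lens (-0.57 ± 0.20, adjusted p = 1.00 in edgeR). The highest positive lens chick just overlapped with the lowest No Lens chick. Under the negative lens TNFSF10 was at 18.2 to 29.7 CPM on day 1, 13.8 to 18.7 CPM on day 2 and 18.6 to 27.8 CPM on day 3 (-0.66 ± 0.18 and 0.64 ± 0.18 between successive days, adjusted p = 0.543 and 0.834). Within groups it too went with the T cell marker sum (r = 0.51, adjusted permutation p = 0.0924; rho = 0.53, adjusted permutation p = 0.0467; r = 0.43 without the 2 farthest chicks). TNFSF11 had 1 to 13 reads per chick and was not tested over all chicks.

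TNFRSF11B (osteoprotegerin, a soluble decoy for TNFSF11 and TNFSF10) was on day 1 at 34.7, 40.9, 53.9 and 55.4 CPM under the negative lens and at 30.7, 30.8, 31.7 and 32.8 CPM under the positive lens, without overlap (0.55 ± 0.15, adjusted p = 0.758). No Lens chicks were at 31.7, 42.6 and 44.4 CPM, across both. On the same day TNFRSF1A, the main receptor for TNF, was at 28.2, 31.5, 32.7 and 33.6 CPM under the negative lens and at 21.2, 23.2, 23.6 and 25.5 CPM under the positive lens (0.43 ± 0.12, adjusted p = 0.764). On days 2 and 3 the lens groups of both receptors overlapped.

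TNFRSF21, death receptor 6, which is known from neurons, was at 132, 134, 139 and 139 CPM with No Lens on day 3 and at 142, 152, 171 and 171 CPM under the positive lens (0.22 ± 0.09, adjusted p = 0.216). These groups did not overlap, as was the case for 11.6% of all genes. Of the 6 TNF-induced genes none was called. TNFAIP8, a regulator of cell survival, was below all No Lens chicks (12.5, 12.6 and 14.3 CPM) in the positive lens chicks of day 1 at 7.60, 7.79, 9.54 and 11 CPM (-0.55 ± 0.20, adjusted p = 1.00), where groups did not overlap for 3 members and 5.42% of all genes. TNFAIP2 on day 3 was at 27.0, 31.0, 37.1 and 56.4 CPM under the positive lens and at 24.8, 25.7, 25.7 and 30.5 CPM with No Lens (0.53 ± 0.19, adjusted p = 0.143). TNFAIP1, an adaptor of a ubiquitin ligase, stayed within 72.4 to 105 CPM over all chicks.

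Of the 5 interferon receptors tested none was called. IFNGR2, a chain of the interferon gamma receptor, ranged from 60.6 to 88.9 CPM, and IFNAR2, a chain of the type I interferon receptor, from 50.6 to 69.7 CPM over the 34 chicks. Both varied little within groups (SD 0.12 and 0.13 on the log2 scale), and the 4 genes IFNAR2, IL10R2, IFNAR1 and IFNGR2 follow each other in GRCg7b with no protein-coding gene between them. IFNG itself had 0 to 8 reads per chick. Toll-like receptors, which sense microbial products, were counted low. TLR7, a sensor of single-stranded RNA, was on day 3 at 0.376, 0.853, 0.869 and 0.954 CPM under the negative lens (1 to 8 reads), at 1.29, 1.82, 2.70 and 5.05 CPM with No Lens, and at 2.51, 2.55, 2.70 and 4.21 CPM under the positive lens.

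All 4 negative lens chicks of day 3 were thus below every other chick of that day in TLR7. TLR7 had enough reads for a test within a day on day 3 alone. It passed there through No Lens and positive lens chicks, where it was higher, and through no negative lens chick. Its differences under the negative lens on that day are thus a description. On day 3 groups did not overlap in 3 of 53 members for the negative lens against No Lens, beside 3.94% of all genes. For negative against positive this held for 7 of 53, beside 3.72% of all genes. The differences of TLR7 were -1.81 ± 0.45 from No Lens and -1.86 ± 0.47 from the positive lens (adjusted p = 0.413 and 0.218 in edgeR). The second of these had an adjusted p of 0.0327 in edgeR when all 34 chicks shared a fit, which remains a description for the same reason. TLR5, the flagellin receptor, went the same way on day 3 with 2.48, 2.62, 2.63 and 2.88 CPM under the negative lens, 3.12 to 5.02 CPM with No Lens and 3.37 to 6.07 CPM under the positive lens (-0.57 ± 0.26 and -0.63 ± 0.27, adjusted p = 0.472 and 0.703). On the same day the macrophage and microglia sum was 87.5 to 99.9 CPM under the negative lens, 89.9 to 115 CPM with No Lens and 101 to 137 CPM under the positive lens, and the T cell sum 5.12 to 7.14 CPM, 4.96 to 8.49 CPM and 8.05 to 16.2 CPM. In both sums the negative and positive lens groups did not overlap, and the part of these cells in the TLR7 and TLR5 differences was not tested. TLR3, a sensor of double-stranded RNA, and TLR4, the receptor for bacterial lipopolysaccharide, did not separate the lens groups on day 3 (2.02 to 7.91 CPM and 3.31 to 5.60 CPM). TLR21, which in birds senses CpG DNA, ranged from 0.260 to 3.46 CPM.

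In the positive lens group most members were higher on day 3 than before. Of 52 members tested, 38 were higher on day 3 than on day 1 with a median log2 difference of 0.24, against a median of 0.01 over all 11432 genes, of which 52.8% were higher. From day 2 to day 3, 41 of 52 were higher (median 0.17, against 0.02 and 54.6% over all genes). Without the filter on low counts 56 of 73 were higher in each case, and when any 1 chick was left out 35 to 41 and 39 to 43 of 52 were higher. The 4 interleukins and all 5 TNF-induced genes tested were higher on day 3 than on day 1, whereas the 3 chemokine receptors tested were lower (median -0.38). These counts are a description. Among the 52, TLR7 and IL2RG had enough reads through no day 1 chick. CCR6, 1 of the 3 chemokine receptors, had enough mainly through day 1 chicks.

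No single member was called in the positive lens group over time. edgeR called 0 members and 0% of all genes from day 1 to day 2, from day 2 to day 3 and from day 1 to day 3, and DESeq2 called 0, 1 (CXCR4) and 0. At an unadjusted p below 0.05 there were 2, 6 and 8 of 52 members (3.85%, 11.5% and 15.4%), beside 1.42%, 4.09% and 5.96% of all genes, and 30 of the 52 were higher on day 2 than on day 1 (47.6% of all genes). IL34 had 3.69, 4.00, 4.14 and 5.37 CPM on day 1 and 6.52 to 9.27 CPM on day 3 (0.85 ± 0.25, adjusted p = 0.671), and TLR7 had 0.50, 1.74, 1.79 and 1.84 CPM on day 1 and 2.51 to 4.21 CPM on day 3 (1.18 ± 0.45, adjusted p = 0.727). In both genes every chick of day 3 was above every chick of day 1. The chicks of these days did not overlap, in either direction, in 6 members in all and 4.67% of all genes. TLR7 had enough reads for this test mainly through the day 3 chicks, where it was highest, and through no day 1 chick. Its difference between these days is thus a description. The T cell marker sum was 4.99 to 11 CPM on day 1 and 8.05 to 16.2 CPM on day 3 and the macrophage and microglia sum 90.7 to 110 CPM and 101 to 137 CPM. The B cell markers (4 of 8 in the table), whose high sums mainly report IGJ, were at 4.77 to 6.15 CPM on day 1 and 4.05 to 22.6 CPM on day 3. The pan-leukocyte markers were at 44.1 to 54.9 CPM and 49.7 to 67.6 CPM. The choroid stroma and muscle sum was 655 to 1006 CPM and 817 to 1583 CPM, and the endothelial sum 553 to 643 CPM and 597 to 725 CPM. The part of these cell types in the shifts of the members was not tested.

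In the negative lens group 17 of 49 members were higher on day 3 than on day 1 (median -0.09, beside 47.4% of all genes), and with No Lens 29 of 52 (median 0.03, beside 49% of all genes). The change of the negative minus positive difference from day 1 to day 3 was above 0 for only 11 of 55 members (45% of all genes), with a median of -0.28 against -0.03 over all genes. No member was called in that test (0% of all genes in edgeR, 7 members or 12.7% at an unadjusted p below 0.05 against 4.62%, and 0 in DESeq2). The direction of the list is a description without a test of its own. The same test against No Lens called 0 members for either lens in both tools, with 5 of 55 at an unadjusted p below 0.05 each (9.09%, beside 4.24% of all genes under the negative and 7.98% under the positive lens), and the change was above 0 for 19 and 39 of the 55 (53.6% and 55.3% of all genes). A test of any change of the lens difference with day called 0 of 55 members in both tools and 0% of all genes, with 7 members at an unadjusted p below 0.05 (3.73% of all genes), CXCR4 among them (adjusted p = 0.788).

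**Figure D5:**
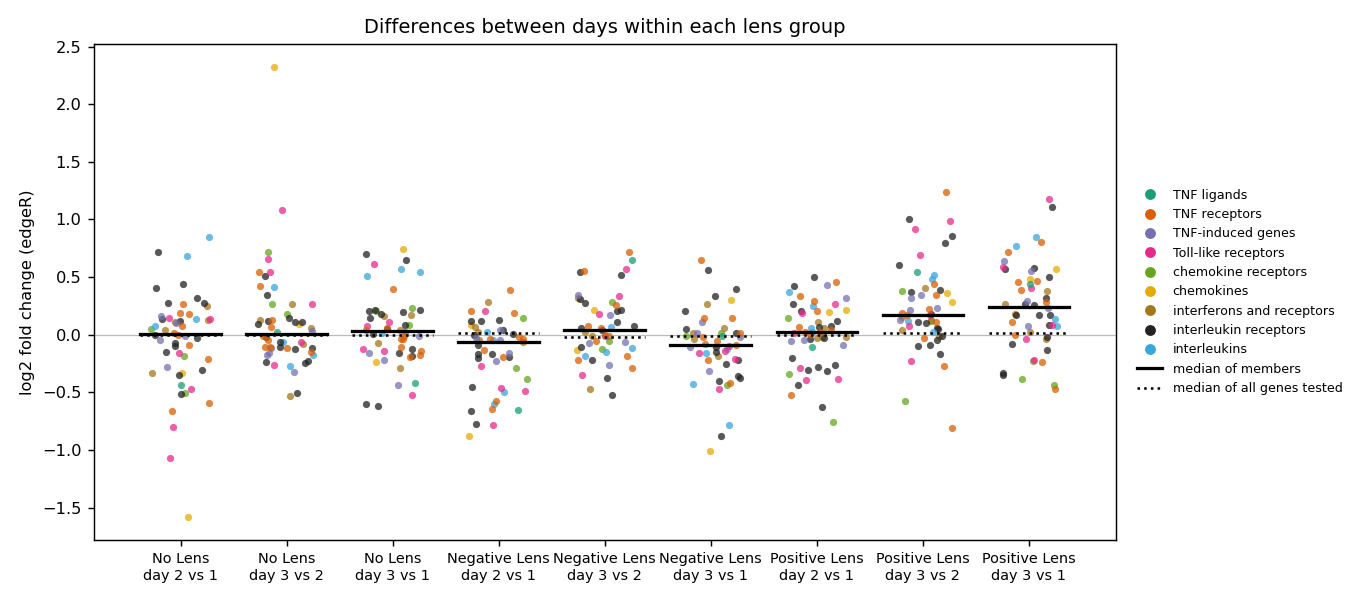
Each point is the log2 fold change (edgeR, vertical axis) of 1 member between 2 days of the same lens group (horizontal axis), coloured by role, with the median of the members as a solid line and that of all genes tested as a dotted line. The medians lie near 0 with No Lens and are highest in the positive lens group from day 2 to 3 (0.17) and from day 1 to 3 (0.24), and no member had an adjusted p below 0.05.

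Within the No Lens and negative lens groups edgeR called 0 members between any pair of days. With No Lens it called 0%, 0.00873% and 0.00873% of all genes from day 1 to 2, 2 to 3 and 1 to 3, and DESeq2 called 0 members each time. At an unadjusted p below 0.05 there were 6, 4 and 3 of 52 members (11.5%, 7.69% and 5.77%), beside 5%, 4.9% and 12.5% of all genes, and 26 of the 52 were higher in each step between successive days (48.7% and 50.1% of all genes). TLR21 with No Lens was at 2.16 to 3.03 CPM on day 1 and 0.770 to 1.38 CPM on day 2 without overlap, as in 9 members and 12% of all genes (-1.07 ± 0.41, adjusted p = 0.949). It had enough reads for this test mainly through the day 1 chicks, where it was higher, and through no day 2 chick, so its difference is a description. Under the negative lens edgeR called 0.0264%, 0% and 0% of all genes, and DESeq2 called 1 (IL1RL1), 0 and 0 members. At an unadjusted p below 0.05 there were 6, 5 and 3 of 49 (12.2%, 10.2% and 6.12%), beside 5.57%, 5.09% and 3.82% of all genes, and 17 and 27 of the 49 were higher in the steps from day 1 to 2 and from day 2 to 3 (54.9% and 43.6% of all genes). CXCR7 was there at 49.2 to 59.6 CPM on day 1, 39.2 to 47.2 CPM on day 2 and 48.4 to 59.4 CPM on day 3 (-0.29 ± 0.11 and 0.28 ± 0.11, adjusted p = 0.754 and 0.974), and day 2 overlapped with neither of the other days, as in 3 members and 3.18% of all genes in the later step.

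The genes that carry the signal of these receptors inside the cell, and those stimulated by interferon, were not called in any lens comparison. In these comparisons edgeR called 0% to 0.878% of all genes, so that 0 called in lists of this size is near the share over all genes. Of JAK-STAT and SOCS genes 17 of 24 were tested over all chicks, of NF-kappaB factors with their adaptors and kinases 33 of 43, and of interferon regulatory factors and interferon-stimulated genes 19 of 35. In the 3 lens comparisons over the days together edgeR called 0 of them, with medians between -0.04 and 0.09. Of all genes it called 0.135% for negative lens against No Lens, 0.0589% for positive lens against No Lens and 0.547% for negative against positive. Of other cytokines and receptors outside the symbol rule, such as CSF1R, 14 of 48 were tested and 0 were called. Over all comparisons and lists, only ZNFX1, an antiviral RNA helicase family gene of the interferon-stimulated list, was called among the genes of these lists (negative lens, day 2 against day 1, -1.25 ± 0.17, adjusted p = 0.0224). Among cell type markers only COL1A2, a collagen chain, was called (positive lens against No Lens, day 3, 0.89 ± 0.19, adjusted p = 0.0452).

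Across the 34 chicks, with group means taken out, 12 members were set beside the T cell and the macrophage and microglia marker sums, 24 relations in all. IL18 went with the macrophage and microglia sum (r = 0.53, adjusted permutation p = 0.0598; rho = 0.52, adjusted permutation p = 0.0467; r = 0.57 without the 2 farthest chicks). With Pearson's r 0 of the 24 relations had an adjusted p below 0.05, and with Spearman's rho 3 had, those of TNFRSF25, TNFSF10 and IL18. CXCR4 had r = -0.22 with the T cell sum and -0.04 with the macrophage and microglia sum.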

How the data were processed

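Reads were trimmed by the authors using Trimmomatic and cutadapt and mapped to galGal4 with TopHat2 and Bowtie2. Reads that mapped to a single gene were counted with HTSeq, and the deposited values are raw counts for each gene and chick. Total counts per chick ranged from 1592763 to 13765634. Near-identical copies may therefore be undercounted, and whether strand was used in counting is not given in the sources used here. TNFAIP6 is spelled TNFIP6 in the table. All 34 chicks had a count column and 0 further sample columns were present. The column of No Lens 3 day replicate 1 has a suffix of unknown meaning in its name. Replicates were separate chicks.

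Counts were analysed in R 4.3.3 with edgeR 4.0.16 (filterByExpr with a minimum count of 10 and a minimum total of 15, TMM, glmQLFit and glmQLFTest) and Benjamini-Hochberg adjustment over all genes tested. Values after ± are standard errors of log2 differences, worked back from the edgeR test as the absolute difference divided by the square root of F. They are approximate, above all for genes with few reads. Fits held all chicks of a day, the 3 days of a lens group, or all 34 chicks with lens and day as terms or with 9 group means. Alternatives were DESeq2 1.42.0, RLE normalization, no filter, only the 2 groups compared, all 34 chicks, and each chick or day left out. Fits were tested on simulated data. Correlations used log2 CPM (prior count 2) and two-sided tests with 100000 permutations within groups. Cell type and pathway markers were matched by symbol.

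Named genes were members called in any comparison, the 3 (over time 2) largest differences per comparison among members with unadjusted p below 0.05 and no overlap, members named by the study, and the 2 with the highest mean in each role. The members, lists and rules were chosen with earlier results of these data known. Neighbours were read from GRCg7b, in which 71 of the 73 members matched, and no coordinates are given because the counts used galGal4. Some items are not reported here.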

Additional observations from a re-analysis of the deposited data

Results flagged for a closer look

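Each value here is that of a chick that stood far from the other 3 of its group, in a test of the gap to the nearest chick against the range of the group. Of 217 pairs of a named gene and a group of 4 chicks, 23 were past the limit. For normally distributed values about 1 in 20 groups would be. The test used CPM that were not logged, some of genes with few reads. Many of the genes were also named for groups that did not overlap, so 23 is not read as an excess. Among TNF family genes, TNFRSF11B was at 62.6 CPM in replicate 4 of the positive lens 2 day group, where the next chick was at 31.1 CPM. TNFSF10 was at 18.6 CPM in negative lens replicate 4 of day 3, and TNFSF11 at 1.92 CPM in negative lens replicate 1 of day 2 and at 2.02 CPM in No Lens replicate 3 of day 3. TNFAIP1 was at 81.1 CPM in negative lens replicate 4 of day 1 and TNFAIP2 at 30.5 CPM in No Lens replicate 3 of day 3.

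Among interleukins and their receptors, IL18 was at 5.26 CPM in negative lens replicate 3 of day 3 and IL34 at 9.46 CPM in No Lens replicate 2 of day 3. IL23R was at 6.86 CPM in positive lens replicate 4 of day 1 and at 3.53 CPM in positive lens replicate 3 of day 3. IL2RA was at 0.329 CPM in positive lens replicate 4 of day 2 with the other 3 at 0, IL2RG at 0.481 CPM in negative lens replicate 1 of day 2, and IL7R at 1.44 CPM in negative lens replicate 3 of day 1. IL1RAPL2 was at 40.4 CPM in No Lens replicate 4 of day 3 and IL17RD at 30.3 CPM in positive lens replicate 2 of day 1.

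CXCL12 was at 78.3 CPM in negative lens replicate 1 of day 2. IFNAR2 was at 51.3 CPM in positive lens replicate 2 of day 2 and at 50.6 CPM in replicate 2 of day 3, the chick with the fewest reads. TLR7 was at 0.50 CPM in positive lens replicate 2 of day 1 and at 4.21 CPM in replicate 1 of day 3. TLR5 was at 5.79 CPM in negative lens replicate 3 of day 2, and TLR4 at 3.06 CPM in positive lens replicate 2 of day 2 and at 3.60 CPM in negative lens replicate 2 of day 3.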

How the results depend on the processing

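The count of members called was 0 or 1 in each comparison, so a single gene decides it. DESeq2 called 1 member where edgeR called 0 in 4 comparisons: IL1RL1 in negative lens against No Lens on day 1, in negative against positive lens on day 1 and in negative lens day 2 against day 1, and CXCR4 in positive lens day 3 against day 2. With all 34 chicks in a fit, 1 member was called in negative against positive lens on day 3 (TLR7, whose difference there is a description) and 1 in positive lens day 3 against day 2 (CXCR4). With only the 2 groups compared, 2 were called in positive lens against No Lens on day 3 (CXCR4 and TNFRSF25). Without a filter, 2 were called in negative against positive lens over the days together (IL16, and CCLI5 with 73 reads in all). That comparison had 0 members without day 1 and 0 without day 2. Leaving out 1 of the 8 chicks gave 0 to 0 members for positive lens against No Lens on day 3, where CXCR4 was lost each time, and changed no count in the other comparisons for which it was run (those within a day, those between days, and negative against positive lens over the days together). No named gene changed direction under any alternative run. The prior count of the correlations changed no count. No paired analysis was possible because the labels give the groups no shared replicate numbers. Members with few reads (CCLI10, TLR7, TNFRSF25, IL23R) carry wide errors, and the lowest total count, in positive lens replicate 2 of day 3, limits that group most.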
